A study of Mus musculus with 12 samples.

Results

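The tropomyosins and tropomodulins are the 8 mouse genes Tpm1, Tpm2, Tpm3, Tpm4, Tmod1, Tmod2, Tmod3 and Tmod4, taken by name from the 22350 protein-coding genes annotated on the mm9 genome. Every annotated transcription start site (TSS) of these genes was counted separately, so that the promoters of muscle and non-muscle transcripts could be told apart. The 8 genes hold 61 annotated TSSs, and TSSs of a gene within 500 bp of one another were joined into 1 promoter, which gave 24 promoters of the 42376 in the whole annotation. Of these 24 promoters, 14 start at least 1 annotated coding transcript, and the other 10 are starts of processed or retained-intron transcripts within the genes. No TSS of another gene lay within 1 kb of any of the 61.

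The study profiled histone modifications in C2C12, a myoblast line of the C3H mouse strain that fuses into multinucleated myotubes when serum is withdrawn. The myoblasts were grown close to confluence in medium with 10% serum, and the myotubes were taken about 5 days after the start of differentiation and freed of unfused cells by a light trypsin treatment, with passages 15 to 18 used throughout. Chromatin of both cell types was immunoprecipitated for 6 marks, which are H3K4me3, H3K4me2, H3K4me1, H3K27ac, H3K27me3 and H3K36me3. Each mark and cell type was represented by 1 library, so no difference below has a replicate check, and all intervals cover counting error only. The read files are called merged, and what was merged into each is not stated. The libraries held from 1858771 reads (H3K27ac in myoblasts) to 7033100 reads (H3K36me3 in myoblasts), and the myotube H3K27ac library held 4725910. A change in the share of cells that carry a mark and a change in the mark per cell cannot be told apart in such bulk samples.

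Tropomyosins are coiled-coil dimers that lie end to end along actin filaments. In striated muscle they sit with the troponin complex on the thin filament and govern the access of myosin to actin, whereas in other cells different tropomyosin isoforms mark different populations of actin filaments. In Tpm1 and Tpm3 an upstream promoter starts the long isoforms, which include those of muscle, and an internal promoter starts the short isoforms of non-muscle cells. Tropomodulins cap the pointed ends of tropomyosin-coated actin filaments and so set thin filament length. Of the marks, H3K4me3 and H3K27ac stand at active promoters, H3K4me2 around them, H3K4me1 and H3K27ac at enhancers, H3K27me3 over genes silenced by Polycomb and H3K36me3 over transcribed gene bodies.

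The upstream promoter of Tpm3 carried little H3K4me3 and H3K27ac in myoblasts and among the highest H3K4me3 and H3K27ac levels of the family in myotubes, while the internal promoter of the same gene carried both marks in both cell types. In Tpm1 both promoters were marked in myoblasts, and in myotubes the balance of H3K4me3 and H3K27ac lay further towards the upstream promoter. Tpm2 and Tmod1 had more H3K27ac in myotubes, Tpm4 and Tmod3 had less when scaled by total reads, and the start sites of Tmod2 and Tmod4 did not stand above the genome mean in H3K4me3 in either cell type.

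Levels were expressed as reads in the 2 kb around a TSS, that is 1 kb on either side, in fold over the genome mean of the same library. A promoter was taken as above the genome mean where the exact Poisson 95% interval of its reads lay above it. H3K4me3 lay above the genome mean at 9 of the 24 promoters in myoblasts (36.9% of all promoters) and at 12 in myotubes (37.4% of all promoters). The 9 were both promoters of Tpm2, the upstream and internal promoters of Tpm1, promoters 2 and 3 of Tpm3, and the first promoters of Tpm4, Tmod1 and Tmod3. H3K4me2 was above the mean at 12 in myoblasts (45.6% of all) and 18 in myotubes (43.9%). H3K4me1 was above it at 14 in myoblasts (41.4% of all) and 21 in myotubes (40.3%). For H3K27ac the counts were 10 in myoblasts (38.1% of all) and 19 in myotubes (37.2%). The genome mean of H3K27ac in 2 kb was 1.45 reads in myoblasts and 3.69 in the deeper myotube library. Lower fold levels thus passed in myotubes, such as 2.71-fold at Tmod4 promoter 1, so these counts are not on equal terms. The myotube counts of H3K4me2, H3K4me1 and H3K27ac thus stood above the share of all promoters, and they included starts within the bodies of Tpm3, Tpm1 and Tmod1. With the 200 kb around each TSS as the background in place of the genome mean, the myotube counts were 11 for H3K4me2 (40.4% of all), 12 for H3K4me1 (29.1% of all) and 11 for H3K27ac (33.1% of all). H3K27me3 was above the genome mean at 4 promoters in myoblasts (16.6% of all) and 4 in myotubes (14.7%), 16.7% of the members in each cell type and thus near the share of all promoters. H3K36me3 was above it at 16 promoters in both myoblasts (32.1% of all) and myotubes (30.0%), most of them starts within the genes.

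**Figure D1:**
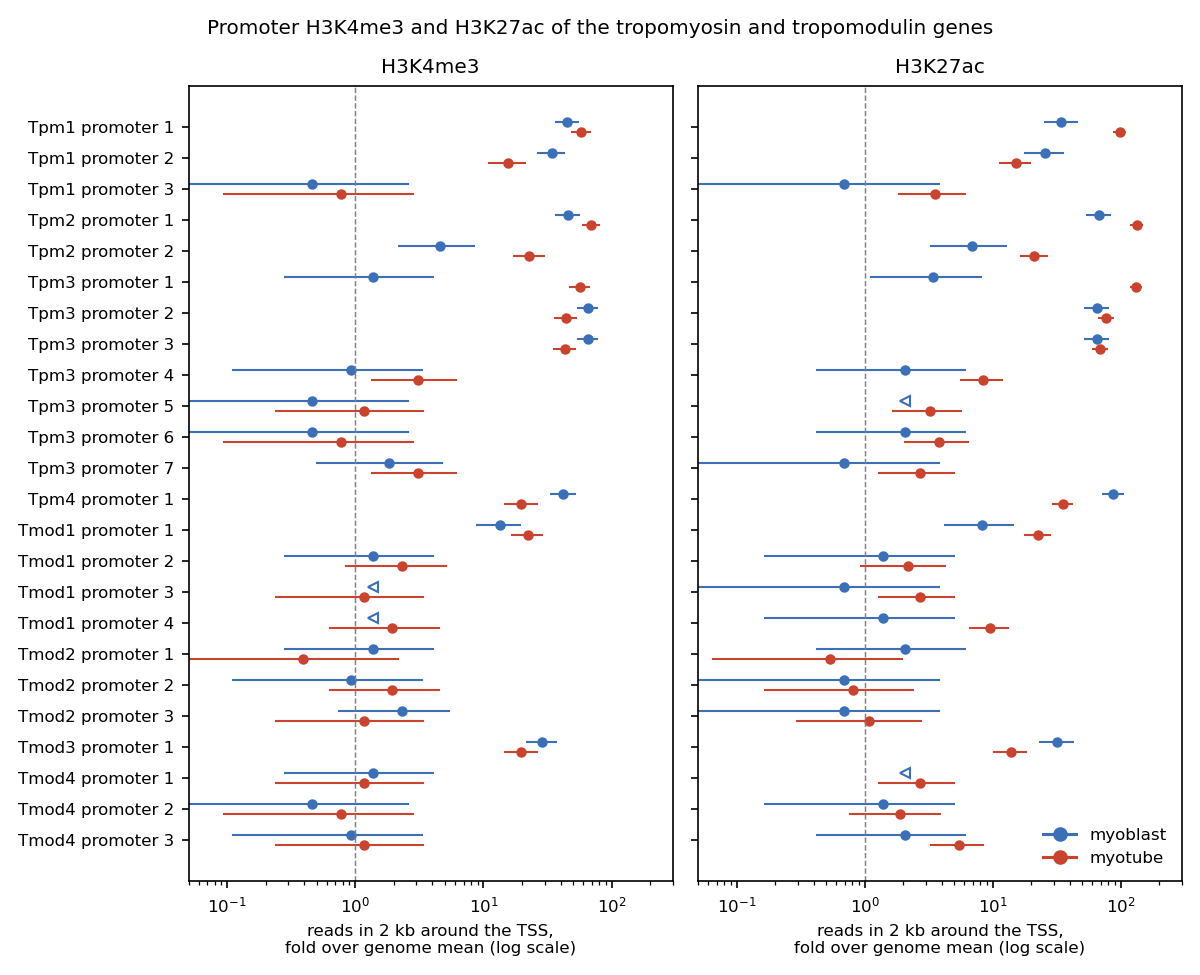
Reads within 1 kb of the TSS of each of the 24 promoters, in fold over the genome mean (log axis), for H3K4me3 (left) and H3K27ac (right) in myoblasts (blue) and myotubes (red). Points are single libraries, bars are exact Poisson 95% intervals cut at the left edge of the plot, open triangles mark 0 reads at the level that 3 reads would give, and the dashed line is the genome mean. Tpm3 promoter 1 lies at 1.38 in myoblasts and 56.6 in myotubes for H3K4me3.

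Myotube to myoblast ratios were scaled by total reads, and a promoter was tested where its reads of the 2 libraries summed to 20 or more. The median ratio over all promoters was 0.876 for H3K4me3, 0.598 for H3K4me2, 0.850 for H3K4me1, 0.608 for H3K27ac, 0.807 for H3K27me3 and 1.03 for H3K36me3. Most promoters therefore had less H3K4me2 and H3K27ac per read in the myotube libraries, and many ratios below are also given relative to these medians.

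A ratio of at least 2 was called higher and a ratio of at most 0.5 lower. H3K27ac was called higher at 7 of 13 member promoters tested (9.11% of all promoters tested) and lower at 2 (38.2% of all). The 7 were Tpm1 promoter 1, Tpm2 promoter 2, Tpm3 promoters 1 and 4, Tmod1 promoters 1 and 4 and Tmod4 promoter 3, and the 2 were the sole promoters of Tpm4 and Tmod3. Relative to the median ratio of all promoters 8 were higher (18.2% of all) and 0 lower (14.6% of all), as the ratios of Tpm4 and Tmod3 on that scale were 0.668 and 0.718. H3K4me3 was higher at 2 of 10 (5.63% of all), which were Tpm3 promoter 1 and Tpm2 promoter 2, and lower at 2 (8.30% of all), which were Tpm1 promoter 2 and Tpm4. Relative to the median ratio 2 of the 10 were called higher in H3K4me3 (7.11% of all) and none lower (5.32% of all). H3K4me2 was higher at 3 of 14 (4.93% of all) and lower at 1 (36.4% of all), the first promoter of Tmod2. This split depended on the scaling, with 6 higher (12.1% of all) and 1 lower (10.4% of all) relative to the median ratio. Scaled by reads outside peaks, 1 was higher (2.85% of all) and 6 were lower (68.3% of all). H3K4me1 was higher at 8 of 18 (12.2% of all) and lower at 0 (22.0% of all). Its count of higher promoters was 11 relative to the median ratio (16.9% of all) and 5 when scaled by reads outside peaks (8.11% of all), with none lower in either case (15.3% and 31.8% of all). H3K27me3 could be tested at the 3 promoters of Tmod2, of which 0 were higher (4.25% of all) and 1 was lower (19.8% of all). H3K36me3 around the start sites was higher at 2 of 14 (10.8% of all), Tpm3 promoter 2 and Tmod1 promoter 4, and lower at 0 (12.8% of all).

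The minimum of 20 reads favoured promoters with many reads in the deeper or more strongly marked library. Of the 13 promoters tested for H3K27ac, 6 reached 20 reads in the myotube library and not in the myoblast library, as did 2 of the 10 tested for H3K4me3, 2 of the 14 for H3K4me2 and 8 of the 18 for H3K4me1. The myoblast library alone reached it at 1 promoter each for H3K4me2, H3K27me3 and H3K36me3. Promoters reached by the myotube library alone had little room to be called lower. Those reached by the myoblast library alone had little room to be called higher. The first group held every promoter called higher in H3K27ac except Tpm1 promoter 1, and both called higher in H3K4me3. It also held all called higher in H3K4me1 except Tmod1 promoter 4 and Tpm3 promoter 2. Tmod2 promoter 1, called lower in H3K4me2 and H3K27me3, was in the second group. These counts therefore give no support for a direction, and they describe the promoters tested and not all 24.

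**Figure D2:**
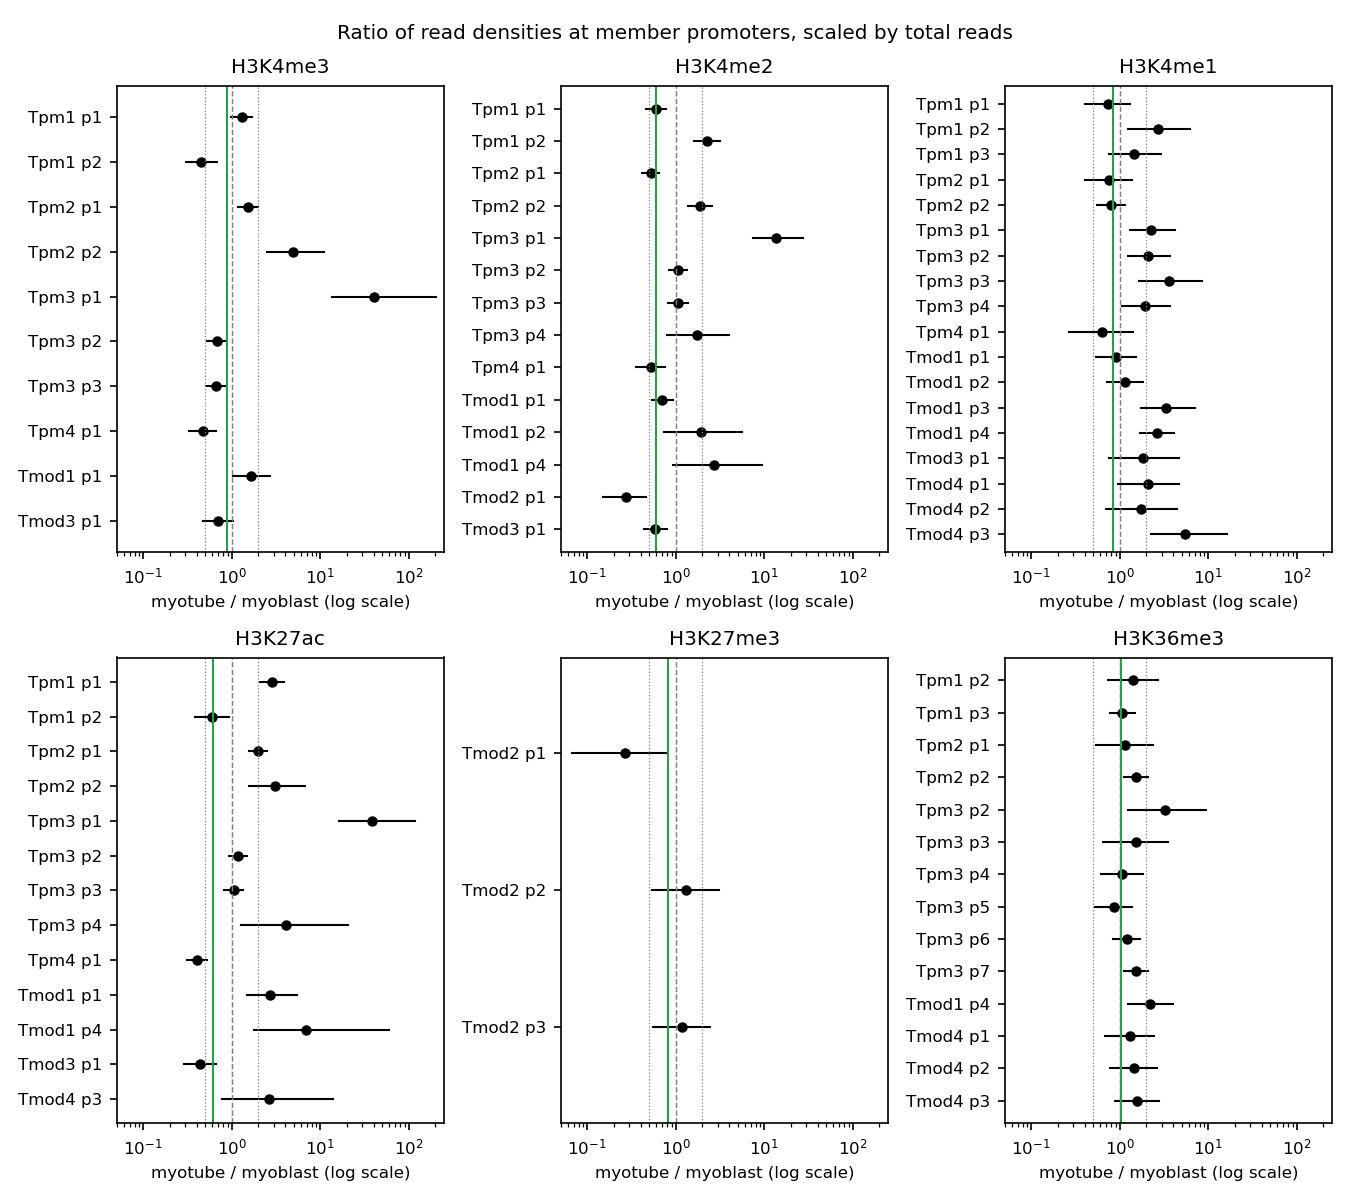
Myotube to myoblast ratio of reads (log axis) at each member promoter tested, in 1 panel per mark; p1 stands for promoter 1. Points are ratios scaled by total reads, bars exact 95% intervals, dashed lines a ratio of 1, dotted lines ratios of 0.5 and 2, and green lines the median over all promoters tested. Tpm3 promoter 1 has the highest member ratio for H3K4me3, H3K4me2 and H3K27ac.

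Tpm3 encodes the tropomyosin of slow muscle fibres from its upstream promoter and short cytoskeletal isoforms from an internal one. The gene lies at chr3:89876571-89904824 on the plus strand. Promoter 1 comprises 3 coding TSSs between 89876571 and 89876616, and promoter 2, in intron 2 of the longest coding transcript, comprises TSSs from 89883462 to 89883813. The 200 bases before the first TSS of each are shown because this pair of promoters differed most between the cell types. They are mm9 sequence on the gene's strand, written 5′ to 3′, at chr3:89876371-89876570 for promoter 1 and chr3:89883262-89883461 for promoter 2. Capitals mark matches to the E-box CANNTG, the letters bound by MyoD and related factors, and to MCAT (CATTCC), searched on both strands.
Tpm3 promoter 1: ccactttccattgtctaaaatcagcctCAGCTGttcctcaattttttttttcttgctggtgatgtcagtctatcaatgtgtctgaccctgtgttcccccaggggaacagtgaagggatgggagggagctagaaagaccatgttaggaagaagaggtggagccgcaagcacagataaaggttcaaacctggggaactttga
Tpm3 promoter 2: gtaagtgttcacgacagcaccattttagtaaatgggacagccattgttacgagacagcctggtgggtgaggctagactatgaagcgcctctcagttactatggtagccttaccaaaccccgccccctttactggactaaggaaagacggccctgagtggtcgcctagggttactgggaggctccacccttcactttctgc
Promoter 1 held 1 E-box, spelled CAGCTG and beginning 173 bases before the TSS, and promoter 2 held none. An E-box occurred in the same 200 bases of 59.9% of all promoters, so its presence does not set this promoter apart. Promoter 1 had 1 CpG and promoter 2 had 6, against a median of 4 over all promoters. No match to MCAT, to TATAAA or to the MEF2 and CArG elements, searched by their usual consensus, was found in these windows; over all promoters MCAT matched 9.60%, TATAAA 10.4%, MEF2 2.34% and CArG 1.09%.

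At Tpm3 promoter 1 H3K4me3 reads numbered 3 in myoblasts and 146 in myotubes. These reads correspond to 1.38-fold (95% interval 0.285 to 4.04) and 56.6-fold (47.8 to 66.6) over the genome mean. The promoter was thus not above the mean in myoblasts, and its myotube level was close to that of the internal promoter in either cell type. The ratio was 40.9 (13.7 to 201), or 46.7 relative to the median of all promoters, and 26 of 14235 promoters tested (0.183%) had a ratio at least as high. H3K27ac went from 5 reads, 3.44-fold (1.12 to 8.03), to 485 reads, 131-fold (119.8 to 143). That ratio of 38.2 (16.2 to 118), which was 62.8 relative to the median and 21.6 within 500 bp of the TSS, was reached or passed by 18 of 14332 promoters (0.126%). H3K4me2 rose from 11 to 165 reads, a ratio of 13.5 (7.37 to 27.7). It was 22.6 relative to the median, 8.71 when scaled by reads outside peaks and 7.62 within 500 bp of the TSS. H3K4me1 went from 19 to 42 reads, a ratio of 2.28 (1.30 to 4.16), but the call was lost within 500 bp, with 1.03, and when scaled by reads outside peaks, with 1.84. In myoblasts the promoter thus carried a low level of mono- and dimethylation of H3K4, while H3K4me3 was not above the mean at this depth. H3K27me3 stood at 12 reads, 2.19-fold (1.13 to 3.82), in myoblasts and at 6 reads, 1.53-fold (0.562 to 3.33), in myotubes, too few for a ratio.

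At Tpm3 promoter 2, the start of the cytoskeletal isoforms, H3K4me3 numbered 142 reads in myoblasts and 114 in myotubes, 65.5-fold (55.2 to 77.2) and 44.2-fold (36.5 to 53.1) over the mean. The ratio of 0.675 (0.523 to 0.870) lay below 1 but did not reach the 2-fold limit, and relative to the median of all promoters it was 0.771. H3K27ac was 65.4-fold (52.9 to 79.9) in myoblasts and 76.6-fold (67.9 to 86.1) in myotubes, a ratio of 1.17 (0.926 to 1.49), or 1.93 relative to the median. H3K4me2 had a ratio of 1.05 (0.834 to 1.33), which was 1.76 relative to the median and 0.677 when scaled by reads outside peaks, so its direction depended on the scaling. Within 500 bp of the TSS the H3K4me3 ratio was 0.510, that of H3K27ac 0.884 and that of H3K4me2 0.914, so the direction of the last 2 depended on the window. H3K4me1 was called higher with 22 and 45 reads and a ratio of 2.11 (1.24 to 3.69), which was 1.71 when scaled by reads outside peaks. Within 500 bp it was 13.4, which rested on few myoblast reads. H3K36me3 was called higher with 7 and 14 reads, a ratio of 3.26 (1.23 to 9.55). The internal promoter thus carried H3K4me3 and H3K27ac in both cell types, without a 2-fold difference in either mark. Tpm3 promoter 3, a coding TSS at 89884364, shares part of its window with promoter 2 and had 142 and 111 reads of H3K4me3. There H3K4me1 rose from 9 to 31 reads, a ratio of 3.56 (1.65 to 8.49), and H3K36me3 had a ratio of 1.51 (0.655 to 3.47). Within 500 bp of the TSS the H3K4me1 ratio was 14.5, which rested on few myoblast reads, and the H3K36me3 reads were too few for a call. The other marks were not called at promoter 3, with ratios of 0.657 (0.508 to 0.849) for H3K4me3, 1.07 (0.827 to 1.38) for H3K4me2 and 1.05 (0.828 to 1.35) for H3K27ac. Relative to the median of all promoters the H3K4me2 ratio was 1.78 and that of H3K27ac 1.73, and scaled by reads outside peaks the H3K4me2 ratio was 0.687.

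A comparison of the promoters within a gene does not depend on the scaling, because the totals cancel. Of the H3K4me3 reads at promoters 1 and 2 of Tpm3 together, promoter 1 held 2.07% (exact binomial 95% interval 0.429 to 5.93) in myoblasts and 56.2% (49.9 to 62.3) in myotubes. For H3K27ac its share was 5.00% (1.64 to 11.3) in myoblasts and 63.2% (59.6 to 66.6) in myotubes. Only H3K4me1, with 46.3% (30.7 to 62.6) and 48.3% (37.4 to 59.2), was split alike in both cell types among the 4 marks of active chromatin. The upstream promoter thus joined the internal one in myotubes and did not replace it.

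The remaining Tpm3 promoters, numbered 4 to 7, lie between intron 2 and exon 8 and start non-coding transcripts. Their H3K4me3 ranged from 1 to 4 reads in myoblasts and 2 to 8 in myotubes. H3K27ac ranged from 0 to 3 reads in myoblasts and 10 to 31 in myotubes, and promoter 4 was the one with enough reads for a ratio, 4.06 (1.27 to 20.8), or 6.69 relative to the median. At promoter 4 the ratio of H3K4me2 was 1.72 (0.794 to 3.96), or 2.88 relative to the median and 1.11 when scaled by reads outside peaks. Within 500 bp its reads were too few for a call. The ratio of H3K4me1 was 1.94 (1.05 to 3.73), just short of the limit, and 3.51 within 500 bp. H3K36me3 had ratios of 1.07 (0.621 to 1.82) at promoter 4, 0.862 (0.525 to 1.39) at promoter 5, which was 1.16 within 500 bp, 1.20 (0.844 to 1.70) at promoter 6, which was 0.815 within 500 bp, and 1.52 (1.11 to 2.08) at promoter 7. H3K27me3 was above the genome mean in myotubes at promoter 5, with 9 reads, 2.30-fold (1.05 to 4.36), and at promoter 6, with 11 reads, 2.81-fold (1.40 to 5.02), against 3 and 2 reads in myoblasts, too few for a ratio. These low H3K4me3 and H3K27ac levels set them apart from promoters 1 and 2, which had between 114 and 485 reads of either mark in myotubes.

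**Figure D3:**
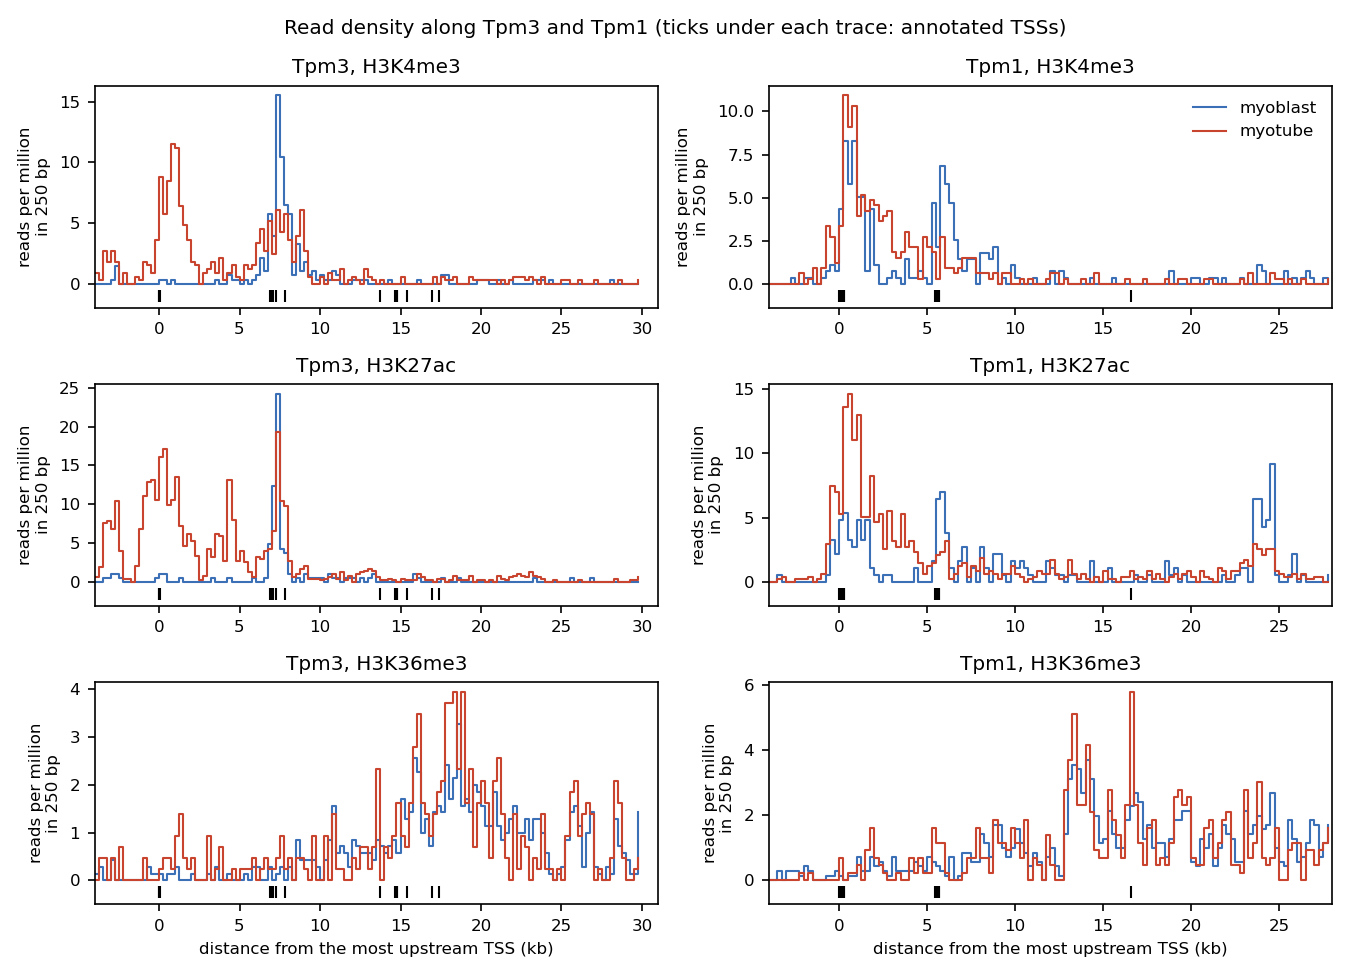
Reads in 250 bp steps, scaled by the reads of each library, along Tpm3 (left) and Tpm1 (right) for H3K4me3, H3K27ac and H3K36me3 in myoblasts (blue) and myotubes (red), by distance in kb from the most upstream TSS in the direction of transcription. Ticks under the traces are annotated TSSs, and each line is 1 library. At Tpm3 the red trace stands alone at distance 0, where promoter 1 had 146 H3K4me3 reads in myotubes against 3 in myoblasts, and both traces are present at the internal promoter.

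Tpm1 encodes the alpha-tropomyosin of striated muscle and, by alternative splicing from the same upstream promoter, long isoforms of smooth muscle and non-muscle cells. It lies at chr9:66870397-66897213 on the minus strand. Promoter 1 comprises 13 TSSs from 66897213 to 66896925, promoter 2, in intron 2, comprises 7 from 66891769 to 66891516, and promoter 3 is a non-coding start in exon 5. The 200 bases before promoters 1 and 2, at chr9:66897214-66897413 and chr9:66891770-66891969, are given on the gene's strand for comparison with Tpm3, with the same motifs in capitals.
Tpm1 promoter 1: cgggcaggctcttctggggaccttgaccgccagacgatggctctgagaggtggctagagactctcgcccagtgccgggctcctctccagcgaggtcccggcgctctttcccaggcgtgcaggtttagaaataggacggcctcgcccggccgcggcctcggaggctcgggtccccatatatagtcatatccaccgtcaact
Tpm1 promoter 2: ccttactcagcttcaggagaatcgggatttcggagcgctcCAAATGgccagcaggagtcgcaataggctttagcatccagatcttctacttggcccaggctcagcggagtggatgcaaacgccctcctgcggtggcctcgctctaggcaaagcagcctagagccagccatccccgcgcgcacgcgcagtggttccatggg
Tpm1 promoter 1 held no match to the motifs searched, and promoter 2 held 1 E-box, spelled CAAATG. Their GC contents were 64.5% and 60.5%, with 17 and 13 CpGs, against 47.0% and 1 CpG at Tpm3 promoter 1 and a median of 52.0% over all promoters.

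At Tpm1 promoter 1 H3K4me3 was already 45.2-fold (36.7 to 55.1) over the mean in myoblasts, with 98 reads, and 58.2-fold (49.2 to 68.3) in myotubes, with 150. The ratio of 1.29 (0.991 to 1.68) did not reach 2-fold and its interval included 1. H3K27ac was 34.4-fold (25.5 to 45.4) in myoblasts, with 50 reads, and 97.7-fold (87.9 to 108) in myotubes, with 361. Its ratio was 2.84 (2.11 to 3.90), or 4.67 relative to the median of all promoters. With counts of 0 set to 3 reads, 6.11% of promoters tested had one at least as high. Acetylation of this promoter thus differed more between the cell types than its H3K4me3. H3K4me2 had a ratio of 0.604 (0.466 to 0.780), or 1.01 relative to the median of all promoters, so it lay at that median, but 0.388 when scaled by reads outside peaks. That of H3K4me1 was 0.733 (0.404 to 1.31), and 1.03 within 500 bp.

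At Tpm1 promoter 2, the start of the short isoforms, H3K4me3 fell from 74 reads, 34.1-fold (26.8 to 42.8), to 40 reads, 15.5-fold (11.1 to 21.1). The ratio was 0.455 (0.301 to 0.677), and 6.10% of promoters tested had one as low, but relative to the median it was 0.519 and at the most upstream TSS 0.507, so just short of the 2-fold limit in both. H3K27ac was 25.5-fold (17.9 to 35.1) in myoblasts and 15.2-fold (11.4 to 19.7) in myotubes. That ratio of 0.595 (0.386 to 0.928) was 0.980 relative to the median, near that of all promoters, and 0.479 within 500 bp. H3K4me2 went the other way, from 51 to 127 reads with a ratio of 2.25 (1.61 to 3.17), or 3.76 relative to the median, but the call was lost when scaled by reads outside peaks, with 1.45, and within 500 bp, with 1.29. H3K4me1 likewise went from 10 to 26 reads, a ratio of 2.68 (1.25 to 6.24), which was 1.99 at the most upstream TSS. H3K36me3 had a ratio of 1.42 (0.739 to 2.70), which was 2.67 within 500 bp. The ratio of H3K4me3 at this promoter thus lay below 1 and those of H3K4me2 and H3K4me1 above it, with each call dependent on the setting.

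The share of promoter 1 in the reads of both Tpm1 promoters was 57.0% (49.2 to 64.5) for H3K4me3 in myoblasts and 78.9% (72.5 to 84.5) in myotubes. For H3K27ac it was 57.5% (46.4 to 68.0) in myoblasts and 86.6% (82.9 to 89.7) in myotubes, and the ratio at promoter 1 was 4.75 times that at promoter 2 (2.76 to 8.17). H3K4me2 shifted in the opposite direction, from 75.1% (68.6 to 80.9) to 44.8% (38.2 to 51.5). So did H3K4me1, from 75.6% (59.7 to 87.6) to 45.8% (31.4 to 60.8). Tpm1 promoter 3 had 1 and 2 reads of H3K4me3 and 1 and 13 of H3K27ac in myoblasts and myotubes, with ratios of 1.46 (0.751 to 2.89) for H3K4me1 and 1.07 (0.769 to 1.47) for H3K36me3.

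Tpm2 encodes the beta-tropomyosin of skeletal muscle, and a single coding promoter serves its muscle and non-muscle isoforms, which arise by splicing. The gene lies at chr4:43527583-43536637 on the minus strand, with promoter 1 from 43536637 to 43536260 and a non-coding start, promoter 2, in exon 3 at 43532541. The 200 bases before promoter 1, at chr4:43536638-43536837, are shown for comparison with Tpm3 promoter 1.
Tpm2 promoter 1: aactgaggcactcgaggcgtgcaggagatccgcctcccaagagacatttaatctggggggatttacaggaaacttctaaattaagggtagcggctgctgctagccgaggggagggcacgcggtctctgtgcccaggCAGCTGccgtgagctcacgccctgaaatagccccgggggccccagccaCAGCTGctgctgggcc
Its 2 E-boxes, both CAGCTG, began 64 and 16 bases before the most upstream TSS, and no other motif of the 5 searched was found. This spelling, also that of the E-box in Tpm3 promoter 1, occurred too at the first promoters of Tpm4 and Tmod2, 42 and 127 bases before the TSS, and at Tmod1 promoter 4. It therefore does not set Tpm2 and Tpm3 apart within the family.

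At Tpm2 promoter 1 H3K27ac numbered 98 reads in myoblasts and 491 in myotubes, 67.4-fold (54.7 to 82.2) and 133-fold (121 to 145) over the mean. The ratio of 1.97 (1.58 to 2.47) lay just short of 2-fold and passed it at the most upstream TSS with 2.09. It was 3.24 relative to the median of all promoters and 1.53 within 500 bp of the TSS. H3K4me3 was 45.7-fold (37.1 to 55.6) in myoblasts and 69.4-fold (59.6 to 80.4) in myotubes, a ratio of 1.52 (1.18 to 1.96). Tpm2 was thus strongly marked in both cell types, and in myotubes its H3K27ac and that of Tpm3 promoter 1 had overlapping intervals and were the highest of the family. H3K4me2 had a ratio of 0.519 (0.414 to 0.648), or 0.867 relative to the median, and on the lower side of the 2-fold limit with 0.334 when scaled by reads outside peaks and 0.426 within 500 bp. That of H3K4me1 was 0.748 (0.405 to 1.36), which was 0.459 within 500 bp. That of H3K36me3 was 1.14 (0.533 to 2.38), and at the most upstream TSS its 13 and 6 reads were too few for a call.

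At Tpm2 promoter 2 H3K4me3 rose from 10 to 59 reads, a ratio of 4.96 (2.52 to 10.9), and H3K27ac from 10 to 78, a ratio of 3.07 (1.58 to 6.65), which was 5.05 relative to the median and 4.98 within 500 bp. In myotubes the deposited H3K4me3 peak over promoter 1 was 6155 bp long and reached over promoter 2, at chr4:43532208-43538362, while in myoblasts the peak was 3090 bp long and did not. A separate start at promoter 2 could therefore not be told apart from the H3K4me3 peak over promoter 1. H3K4me2 there had a ratio of 1.88 (1.38 to 2.58), or 3.14 relative to the median and 1.21 when scaled by reads outside peaks. H3K4me1 had one of 0.797 (0.548 to 1.15) and H3K36me3 one of 1.52 (1.12 to 2.07).

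Tpm4 encodes a short cytoskeletal tropomyosin of non-muscle cells and lies at chr8:74658874-74677041 on the plus strand, with 1 promoter. Its H3K4me3 fell from 91 reads, 42.0-fold (33.8 to 51.5), to 51 reads, 19.8-fold (14.7 to 26.0), a ratio of 0.471 (0.328 to 0.671). Relative to the median of all promoters that ratio was 0.538, short of 2-fold. H3K27ac, at 86.7-fold (72.2 to 103), was the highest of the family in myoblasts, above the intervals of all but Tpm2 promoter 1 and Tpm3 promoters 2 and 3, and stood at 35.2-fold (29.4 to 41.8) in myotubes. The H3K27ac ratio was 0.406 (0.315 to 0.523), or 0.668 relative to the median, and 26.8% of all promoters tested had one as low, so this decrease was shared with a large part of the genome. Among the tropomyosins Tpm4 was the gene with lower H3K4me3, H3K4me2, H3K4me1 and H3K27ac ratios than 1 at its coding promoter and over its body, although the H3K4me1 ratio of 0.631 (0.269 to 1.41) at the promoter and the H3K4me3 ratio of 0.925 (0.699 to 1.23) over the body had intervals that included 1. Within 500 bp of the TSS the H3K4me1 ratio was 1.03. The H3K4me2 ratio at the promoter was 0.519 (0.353 to 0.755), or 0.868 relative to the median and 0.334 when scaled by reads outside peaks.

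Tmod1 encodes the tropomodulin of cardiac and skeletal muscle and of red blood cells. The gene lies at chr4:46051807-46128904 on the plus strand. Its coding promoter has TSSs at 46051807 and 46052081, and 3 non-coding starts lie in introns 2, 3 and 8. The 200 bases before the first TSS, at chr4:46051607-46051806, are shown as the one coding promoter of the family that held an MCAT match, beginning 169 bases before the TSS, together with an E-box 75 bases before it.
Tmod1 promoter 1: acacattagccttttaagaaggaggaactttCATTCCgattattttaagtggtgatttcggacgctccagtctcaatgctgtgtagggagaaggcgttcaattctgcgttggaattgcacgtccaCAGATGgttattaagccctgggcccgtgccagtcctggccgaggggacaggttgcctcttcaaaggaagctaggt
At this promoter H3K27ac rose from 12 reads, 8.26-fold (4.27 to 14.4), to 83 reads, 22.5-fold (17.9 to 27.8). The ratio was 2.72 (1.48 to 5.48), or 4.48 relative to the median of all promoters. H3K4me3 was 13.4-fold (8.96 to 19.2) in myoblasts and 22.1-fold (16.7 to 28.6) in myotubes, a ratio of 1.65 (1.04 to 2.68), but within 500 bp of the TSS the ratio was 0.748, so its direction depended on the window. Tmod1 thus carried less of both marks than the first promoters of Tpm1 and Tpm2 in both cell types, with H3K27ac called higher in myotubes and H3K4me3 short of the limit. H3K4me2 had a ratio of 0.704 (0.534 to 0.928), which was 1.18 relative to the median and 0.453 when scaled by reads outside peaks, so its direction depended on the scaling. The same held for H3K4me1, with 0.915 (0.545 to 1.53) and 1.08 relative to the median.

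The internal starts of Tmod1 had 0 to 3 reads of H3K4me3 in myoblasts and 3 to 6 in myotubes. H3K4me1 was 15.5-fold (12.2 to 19.4) over the mean at promoter 4, in intron 8, in myotubes and 5.92-fold (4 to 8.46) in myoblasts. That ratio was 2.62 (1.69 to 4.14), and H3K27ac there rose from 2 to 35 reads, a ratio of 6.88 (1.77 to 59.1), or 11.3 relative to the median. H3K36me3 was called higher there with 2.20 (1.24 to 3.95), a call lost within 500 bp with 1.63 and without extension of the reads with 1.89. H3K4me2 had 5 and 15 reads, a ratio of 2.71 whose interval (0.936 to 9.52) included 1. It was 4.53 relative to the median and 1.74 when scaled by reads outside peaks, and within 500 bp its reads were too few for a call. H3K4me1 at promoter 3 had a ratio of 3.36 (1.72 to 7.04). In myotubes promoters 3 and 4 thus stood above the genome mean in H3K4me1 and H3K27ac and not in H3K4me3. Promoter 2 was above it in H3K4me1 and not in H3K27ac, at 2.17-fold (0.935 to 4.27), and in myoblasts none of the 3 was above it in H3K27ac.

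Tmod3, the tropomodulin found in most cell types, has 1 annotated TSS at 75407464 on the minus strand of chromosome 9. H3K4me3 was 28.6-fold (21.9 to 36.7) in myoblasts and 19.8-fold (14.7 to 26.0) in myotubes, a ratio of 0.692 (0.468 to 1.02), which was 0.451 within 500 bp of the TSS. H3K27ac was 31.7-fold (23.2 to 42.2) and 13.8-fold (10.3 to 18.1), a ratio of 0.436 (0.287 to 0.664), which was 0.718 relative to the median and so not called on that scale. Tmod3 therefore carried active promoter marks in both cell types, with an H3K27ac ratio below 1 as at Tpm4. H3K4me2 had a ratio of 0.589 (0.434 to 0.794), or 0.984 relative to the median and 0.379 when scaled by reads outside peaks, and H3K4me1 one of 1.84 (0.764 to 4.71), which was 2.07 within 500 bp.

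Tmod4 encodes the tropomodulin specific to skeletal muscle and lies at chr3:94928398-94933131 on the plus strand. Promoter 1, with 3 coding TSSs between 94928398 and 94928437, had 3 reads of H3K4me3 in myoblasts and 3 in myotubes. These levels were 1.38-fold (0.285 to 4.04) and 1.16-fold (0.240 to 3.40) over the mean. The gene of the muscle-specific tropomodulin thus had no H3K4me3 above the genome mean at its start in either cell type at this depth. H3K27ac there numbered 0 reads in myoblasts, with an upper limit of 2.54-fold, and 10 in myotubes, 2.71-fold (1.30 to 4.98). H3K4me1 at the start had 11 and 22 reads, a ratio of 2.07 whose interval (0.960 to 4.72) included 1. Within 500 bp the reads were too few for a call. The call was lost when scaled by reads outside peaks, with 1.67, and with 1 read added to each library, with 1.98. H3K36me3 had a ratio of 1.30 (0.687 to 2.45). Further into the gene, promoter 3 comprises a coding TSS at 94931092 in intron 4 and a non-coding one at 94931575 in exon 6. In the window around the latter, H3K4me1 rose from 6 to 32 reads, a ratio of 5.51 (2.27 to 16.1). H3K27ac there went from 3 to 20, a ratio of 2.62 whose interval (0.778 to 13.8) included 1, or 4.32 relative to the median. H3K36me3 there had a ratio of 1.57 (0.880 to 2.80). At the most upstream TSS H3K4me1 had 4 and 14 reads and H3K27ac 3 and 9, too few for a call. Within 500 bp the H3K27ac reads were too few as well. Over the whole body H3K27ac had a ratio of 3.87 (1.68 to 11.0) and H3K4me1 one of 4.07 (2.40 to 7.26). Myotubes thus had acetylation and H3K4me1 over Tmod4 without a detectable H3K4me3 peak at its start.

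Tmod2 encodes the tropomodulin of neurons. It lies at chr9:75413428-75459132 on the minus strand and has 3 coding TSSs, at 75459132, 75446940 and 75445458. H3K4me3 ranged from 2 to 5 reads in myoblasts and from 1 to 5 in myotubes over them, and H3K27ac from 1 to 3 and from 2 to 4, so no start was active by these marks. H3K27me3 was above the genome mean at all 3 in myoblasts, at 3.83-fold (2.37 to 5.85), 2.37-fold (1.26 to 4.05) and 3.28-fold (1.94 to 5.18) in order. In myotubes it was 1.02-fold (0.278 to 2.61) at the first and 3.06-fold (1.58 to 5.35) and 3.83-fold (2.14 to 6.31) at the others. The first start alone was thus called lower, with 21 reads in myoblasts, 4 in myotubes and a ratio of 0.267 (0.0665 to 0.790), but within 500 bp of the TSS it held too few reads for a call. This start also carried H3K4me2, at 17.9-fold (13.6 to 23.0) in myoblasts and 4.84-fold (2.87 to 7.65) in myotubes, a ratio of 0.271 (0.150 to 0.465). Even relative to the median of all promoters the H3K4me2 ratio was 0.453. In myoblasts the first start of the neuronal tropomodulin gene thus stood above the genome mean in both H3K4me2 and H3K27me3, although the H3K27me3 peaks did not meet its window.

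H3K36me3 over the gene bodies, counted from 1 kb after the first TSS to the gene end, had a median ratio of 1.01 over all gene bodies. None of the 8 members was called 2-fold higher (7.67% of all gene bodies) and none lower (7.35% of all). The largest ratio was that of Tmod1, 1.89 (1.71 to 2.10), from 3.35-fold over the genome mean in myoblasts to 6.33-fold in myotubes. The smallest was that of Tpm4, 0.527 (0.431 to 0.640), from 8.98-fold to 4.73-fold. Both lay close to the 2-fold limit, and the Tmod1 body passed it when scaled by reads outside peaks. Tpm1, with a ratio of 0.984 (0.880 to 1.10), and Tpm3, with 1.15 (1.01 to 1.31), were near the median. Tpm2 had the highest level of the family in both cell types, 13.8-fold in myoblasts and 16.8-fold in myotubes, with a ratio of 1.22 (1.02 to 1.45). Tmod2 lay below the genome mean, at 0.439-fold and 0.371-fold. Tmod4 had 5.07-fold in myoblasts and 7.15-fold in myotubes, a ratio of 1.41 (0.925 to 2.14), and Tmod3 had 2.60-fold and 2.25-fold.

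Most of the Tpm3 body lies downstream of both promoters, so its parts between promoters were also counted separately. In the 5.20 kb between the windows of promoters 1 and 2, H3K36me3 numbered 12 reads in myoblasts, 0.840-fold (0.434 to 1.47), and 28 in myotubes, 3.19-fold (2.12 to 4.62). The ratio of 3.81 (1.87 to 8.22) was the largest among the parts of bodies counted, and myoblasts were not above the mean there. H3K27ac in the same part went from 4 to 453 reads, a ratio of 44.5 (17.3 to 164), and H3K27me3 from 35 reads, 2.45-fold (1.71 to 3.41), to 16, 1.57-fold (0.898 to 2.55), a ratio of 0.640 (0.331 to 1.19). The part that only transcripts from the upstream promoter cross was thus marked by H3K36me3 in myotubes and not in myoblasts. Downstream of promoter 7 the H3K36me3 ratio was 0.977 (0.806 to 1.18). H3K27me3 there went the other way, from 0.778-fold (0.481 to 1.19) to 1.66-fold (1.13 to 2.34), a ratio of 2.13 (1.19 to 3.89). Over the whole Tpm3 body its ratio was 1.47 (1.07 to 2.01). This was not particular to Tpm3, as the H3K27me3 body ratio was 1.55 (1.06 to 2.25) at Tpm1, 1.87 (1.02 to 3.46) at Tpm2 and 1.49 (1.20 to 1.85) at Tmod1. At Tmod2 it was 0.763 (0.610 to 0.951), and the intervals of Tpm4, Tmod3 and Tmod4 included 1.

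In Tpm1 the matching 3.41 kb between promoters 1 and 2 had 4.05-fold (2.87 to 5.56) H3K36me3 in myoblasts and 4.35-fold (2.81 to 6.42) in myotubes, a ratio of 1.07 (0.621 to 1.82). The part upstream of the internal promoter was thus above the genome mean in H3K36me3 in both cell types. H3K27ac in this part numbered 22 reads in myoblasts and 261 in myotubes, a ratio of 4.67 (3.02 to 7.58). In Tmod1 all 4 parts had more H3K36me3 in myotubes, with ratios from 1.60 (1.29 to 1.99) to 2.27 (1.36 to 3.83).

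**Figure D4:**
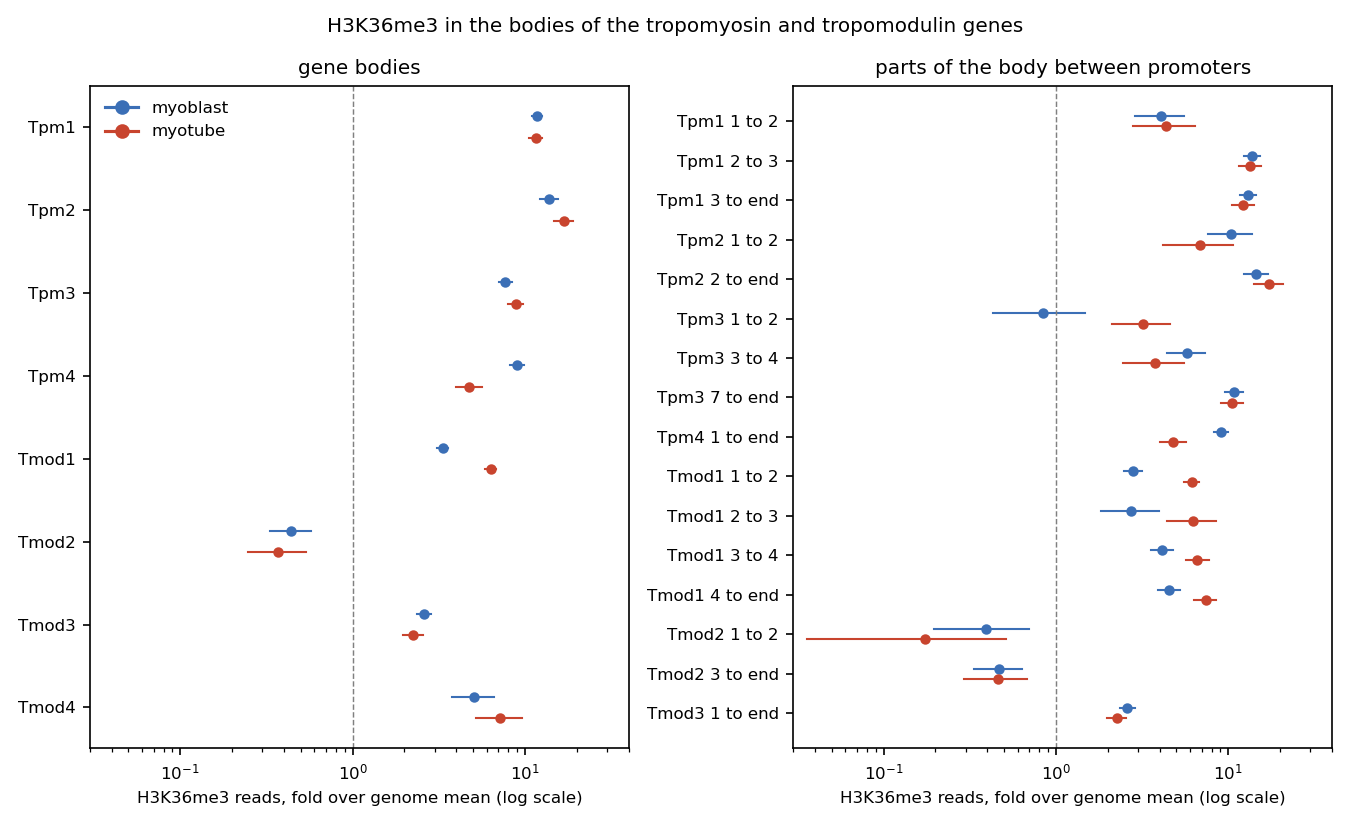
H3K36me3 reads in fold over the genome mean (log axis) in myoblasts (blue) and myotubes (red) over the bodies of the 8 genes (left) and the parts of the bodies between successive promoters, numbered as in the text, with at least 1 kb outside the promoter windows (right). Points are single libraries, bars exact Poisson 95% intervals and the dashed line the genome mean. Tpm3 from promoter 1 to 2 lies at 0.840 in myoblasts and 3.19 in myotubes.

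The deposited peaks were set against the same promoters. A peak of H3K4me3 met the 2 kb window at 8 of the 24 promoters in myoblasts (32.3% of all promoters) and at 10 in myotubes (32.7%). The 2 further promoters in myotubes were Tpm3 promoter 1, with a peak of 3741 bp at chr3:89875337-89879077, and Tpm2 promoter 2. At Tpm1 promoter 2 the myoblast peak was 4227 bp long, and the myotube peaks in its window were 969 and 3134 bp long. No promoter of Tmod2 or Tmod4 lay in an H3K4me3 peak. The myotube H3K27ac list met 15 of the 24 promoters (29.5% of all), among them promoter 3 of Tmod4 and promoters 1, 3 and 4 of Tmod1. The lists deposited with the myoblast H3K27ac and H3K27me3 libraries appeared exchanged. The list deposited with H3K27ac had 0.588 times the genome mean of H3K27ac reads and 6.76 times that of H3K27me3, and the list deposited with H3K27me3 had 36.4 times the mean of H3K27ac. The mark named inside each of these lists was the one whose reads it held. As deposited, the H3K27ac list met 0 of the 24 promoters in myoblasts (4.11% of all), and with the lists exchanged it met 8 (31.4% of all). The H3K27me3 lists met 0 of the 24 in myoblasts with the lists exchanged (4.11% of all) and 0 in myotubes as deposited (1.30% of all), so few promoters of any gene lay in them.

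Away from the start sites, the highest 1 kb bin of H3K27ac within 20 kb of each gene was taken as a description, leaving out bins within 1 kb of a TSS of the gene or of another coding gene. A bin chosen for its reads in one cell type has a ratio favoured towards that cell type, so these ratios support no direction. In Tpm3 this bin in myotubes began 4 kb after the first TSS, at chr3:89880571-89881570, and held 126 reads, 68.2-fold over the mean, against 1 read in myoblasts. It lay within the myotube H3K4me3 peak over promoter 2, with 8.53-fold H3K4me3. The Tpm3 bin with most H3K27ac in myoblasts, 3.00 kb before the TSS, holds the microRNA gene Mir190b. It had 102 reads in myotubes and 5 in myoblasts, a ratio of 8.02 (3.33 to 25.2). In myotubes these Tpm3 bins on both sides of promoter 1 thus held H3K27ac above the genome mean, and whether they join it was not tested. In Tpm1 the highest bin in myotubes began 2 kb after the first TSS, at chr9:66894214-66895213, and had 3 reads in myoblasts and 85 in myotubes, a ratio of 11.1 (3.69 to 55.1). It lay within the myotube H3K4me3 peak over promoter 1, with 41.9-fold H3K4me3. The Tpm1 bin with most H3K27ac in myoblasts began 24.0 kb after the first TSS, near the end of the gene, and went from 35 to 38 reads, a ratio of 0.427 (0.263 to 0.696). In Tpm2 1 bin, at chr4:43533638-43534637, was the highest in both cell types and had 11 and 135 reads, a ratio of 4.83 (2.61 to 9.90). This bin too lay within the myotube H3K4me3 peak over promoter 1, with 45.8-fold H3K4me3. The highest bin of Tpm4, 2 kb after its TSS, had 13 and 21 reads, a ratio of 0.635 (0.304 to 1.38). It overlapped the gene Gm17371 and the H3K4me3 peak over the Tpm4 promoter. In Tmod1 a bin 56.0 kb into the gene was the highest in both cell types, with 74.3-fold in myoblasts and 67.7-fold in myotubes and a ratio of 0.911 (0.657 to 1.28). This level was above that of the Tmod1 promoter in both. The Tmod4 bin highest in myotubes, just past the end of the gene at chr3:94933398-94934397, overlapped the gene Scnm1. It had 1 read in myoblasts and 50 in myotubes, a ratio of 19.7 (3.37 to 792). The Tmod4 bin highest in myoblasts, at chr3:94908398-94909397, overlapped the gene Pip5k1a and had 7 and 15 reads, a ratio of 0.843 (0.324 to 2.44). The highest bins of Tmod2 and Tmod3 held at most 3 reads in either cell type, apart from 15 in the myotube bin of Tmod3.

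Other genes of the thin filament were counted at the promoter with most H3K4me3 reads. The 8 troponin genes, whose products move tropomyosin on the filament, hold 23 promoters. H3K27ac was higher at 6 of the 7 troponin promoters tested (9.11% of all promoters) and lower at none (38.2% of all). The median ratio was 8.30 against 0.608 over all promoters. All 7 had under 20 reads in myoblasts and could hardly have been called lower, so the count gives no support for a direction. Among those tested Tnnc1, which encodes troponin C of slow and cardiac muscle, had the highest ratio, 19.3 (10.7 to 39.0), and Tnnt2, the cardiac troponin T, the lowest, 1.49 (0.731 to 3.36). The mean H3K4me3 level over the 8 promoters, tested or not, was 2.36-fold over the genome mean in myoblasts and 50.8-fold in myotubes. The members, counted in the same way with 1 promoter a gene, had mean levels of 30.5-fold and 29.5-fold. Counted so, Tpm3 is represented by its internal promoter, and its upstream promoter, with ratios of 40.9 for H3K4me3 and 38.2 for H3K27ac, lay in or above the range of the troponins.

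The 6 actin genes were counted in the same way. H3K27ac was higher at 3 of 5 tested (9.11% of all promoters) and lower at none (38.2% of all), with a median ratio of 2.85. Of the 3, 2 had under 20 reads in myoblasts, so the count gives no support for a direction. Mean H3K4me3 was 30.7-fold in myoblasts, close to the members, and 53.2-fold in myotubes. Acta1, the skeletal muscle actin, had the highest ratio, 32.1 (14.6 to 87.8), and Actb, the beta-actin of the cytoskeleton, the lowest of the 5 tested, 0.791 (0.661 to 0.950). Actg2, with 10 and 8 reads and so not tested, had a ratio of 0.315 (0.108 to 0.886). The H3K27ac ratio of Actb lay above the median of all promoters and below 1, so its direction depended on the scaling, whereas that of Tpm4 lay below both. The 3 leiomodins, which nucleate actin filaments in muscle and are relatives of the tropomodulins, were all called higher in H3K27ac (9.11% of all promoters). All had under 20 reads in myoblasts, so these calls give no support for a direction. Their ratios ran from 6.36 (3.95 to 10.9) at Lmod3 to 142 (25.3 to 5609) at Lmod2. Lmod2 had 1 read of H3K27ac in myoblasts and 360 in myotubes, a contrast that no tropomodulin gene showed.

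In the nebulin family, giant and smaller proteins bound along the thin filament, H3K27ac was higher at both promoters tested (9.11% of all promoters). The ratios were 4.29 (2.77 to 6.98) at Nrap and 24.3 (9.37 to 89.9) at Neb, which had under 20 reads in myoblasts. Of the 3 genes of the capping protein of barbed ends, the opposite end from that held by tropomodulin, Capza2, with 6 reads in myoblasts, was higher with 4.98 (2.19 to 14) and Capzb had the lowest ratio, 0.611 (0.468 to 0.800). Among 9 genes of filament turnover and assembly H3K27ac was higher at 3 of 8 tested (9.11% of all promoters) and lower at none (38.2% of all). The median ratio was 1.45. All 3 were among the 4 with under 20 reads in myoblasts, so the count gives no support for a direction. Of the 8 tested Cap2, a cyclase-associated protein of striated muscle, had the highest ratio, 22.0 (3.80 to 885). Cfl1, the cofilin of non-muscle cells, had the lowest of them, 0.676 (0.530 to 0.867), which lay above the median of all promoters.

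**Figure D5:**
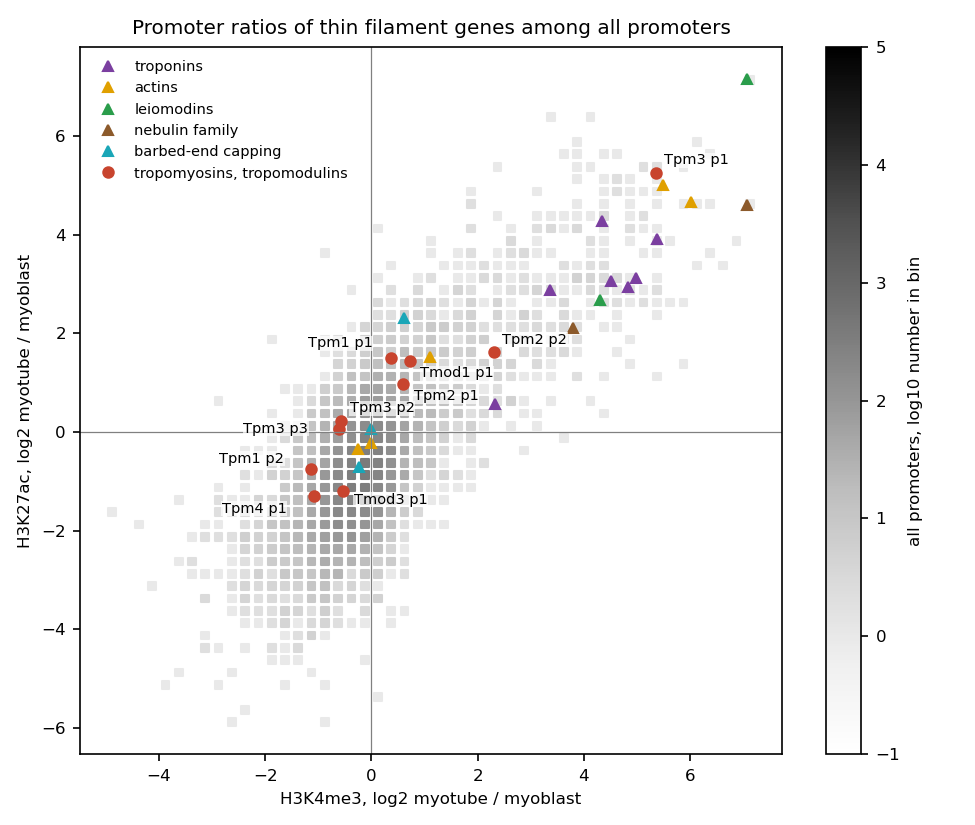
Log2 myotube to myoblast ratio of H3K4me3 (horizontal axis) and H3K27ac (vertical axis), scaled by total reads, for promoters with at least 20 reads of each mark. Grey squares give the number of all promoters in steps of the axes, triangles the other thin filament genes at 1 promoter each and red circles the promoters of the tropomyosins and tropomodulins. A count of 0 was replaced by 3. Tpm3 promoter 1 lies among the muscle actins and troponins, and the other member promoters lie nearer to the bulk.

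Markers of the cell types were also counted. H3K27ac was higher in myotubes at 6 of 8 myotube markers (9.11% of all promoters), each with under 20 reads in myoblasts, among them Myog with a ratio of 6.82 (4.24 to 11.7). It was lower at all 6 markers of cycling myoblasts (38.2% of all), 5 of which had under 20 reads in myotubes, among them Mki67 with 0.0492 (0.0151 to 0.125). With so few reads of nearly all these genes in one of the libraries, the counts give no support for a direction. Mean H3K27ac over the cycling markers was 37.7-fold in myoblasts and 5.01-fold in myotubes, where Id1, an inhibitor of MyoD and its partners, held 62 of the 111 reads. Among the 3 lineage markers Myod1, Myf5 and Cdh15, H3K27ac was lower at 1 (38.2% of all promoters), Myf5, with 0.483 (0.302 to 0.778). Epor, with 2 and 18 reads and a ratio of 3.54 whose interval (0.848 to 31.5) included 1, was the one marker of another cell type called higher in H3K27ac, beside 7 promoters of the tropomyosins and tropomodulins. Gata1, which governs red cell genes, had 0 reads in both cell types. Mean H3K27ac over the 3 smooth muscle markers was 6.19-fold in myoblasts and 6.04-fold in myotubes, mostly from Smtn, while Myh11 had 2 reads in each. Endothelial markers had means of 2.75-fold and 0.902-fold. The neuron markers, with most reads at Tubb3, had 6.42-fold and 1.80-fold. Tubb3 was called lower with 24 and 17 reads and a ratio of 0.279 (0.140 to 0.541). Adipocyte markers had 13.8-fold in myoblasts and 8.84-fold in myotubes, nearly all from Pparg, with a ratio of 0.640 (0.458 to 0.901), which lay above the median of all promoters, and with no reads at Fabp4. Bone and cartilage markers had 50.5-fold and 27.4-fold, with Runx2 called lower at 0.472 (0.347 to 0.643), while Sox9 had a ratio of 0.597 (0.479 to 0.746) and was not called. Relative to the median ratio of 0.608 neither Myf5 nor Runx2 was called lower, whereas Tubb3 still was.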

How the data were processed

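Deposited reads and peaks of 12 C2C12 libraries were used. The authors aligned the reads to mm9 with Mosaik, kept unique alignments and deposited them as counts of 1 per read; removal of duplicates is not stated. The authors called peaks with MACS and deposited a score for each, with version and settings not stated. Reads on chromosomes 1 to 19 and X were extended to 150 bp, and their midpoints were counted within 1 kb of each GENCODE M1 TSS. The genome mean was the reads of a library over 2555806925 bases. A promoter was represented by its TSS with most H3K4me3 reads in both cell types together. Ratios have exact conditional binomial 95% intervals, and for calls a count of 0 was set to 3 reads. The code of the intervals was run on simulated Poisson counts with known ratios. These follow the counting model that the intervals assume and hold no variation between libraries. No input library was used. Members and lists were chosen with earlier results of these data known. All 8 members were named, with promoters above the genome mean in H3K4me3 or H3K27ac described in full, and in each thin filament list the genes with the highest and lowest tested H3K27ac ratio. Marker genes were named where they held most of the reads of their list, no reads, or the call given. Counts and intervals were computed in Python 3.11.15 with scipy 1.17.1 and numpy 2.4.6, tables were handled with pandas 2.3.3, and the plots were drawn in matplotlib 3.10.9.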

Additional observations from a re-analysis of the deposited data

How the results depend on the processing

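Each mark and cell type had 1 library and no input, so differences between cultures, antibodies and libraries cannot be separated from those between cell types. Several promoter windows of Tpm3, Tmod2 and Tmod4 share reads, so their counts are not independent. The H3K27ac library of myoblasts was the smallest, and low counts there give wide intervals. Transcripts were not measured, and Tpm2 isoforms cannot be told apart by promoter. The counts of member promoters that moved with a setting follow, with the share of all promoters or gene bodies in brackets and the number tested where it changed. The cause was not tested. Relative to the median ratio, H3K4me3 was lower at 0 (5.32%), H3K4me2 higher at 6 (12.1%) and H3K27ac lower at 0 (14.6%). Scaled by reads outside peaks, H3K4me2 was higher at 1 (2.85%) and lower at 6 (68.3%), H3K4me1 higher at 5 (8.11%), and H3K36me3 higher over 1 gene body (10.7%). With 500 bp either side of the TSS, H3K4me2 was higher at 1 of 11 (3.55%) and lower at 4 of 11 (43.3%), H3K4me1 higher at 4 of 10 (9.83%), H3K27ac higher at 4 of 10 (8.11%), H3K27me3 lower at 0 of 0 (33.9%) and H3K36me3 higher at 1 of 10 (13.9%), and H3K27me3 was above the genome mean at 2 in myoblasts (13.2%) and 2 in myotubes (9.40%). With reads not extended, H3K36me3 was higher at 1 (10.8%). At the most upstream TSS, H3K4me3 was lower at 1 (8.36%) and H3K4me2 lower at 2 (36.5%). With a minimum of 50 reads, H3K4me1 was higher at 4 of 9 (6.31%), H3K27ac higher at 4 of 10 (7.26%), H3K27me3 lower at 0 of 0 (34.4%) and H3K36me3 higher at 1 of 8 (10.4%). With no minimum and 1 read added, H3K4me3 was higher at 5 of 24 (10.0%), H3K4me2 higher at 8 of 24 (13.1%), H3K4me1 lower at 1 of 24 (16.7%), H3K27ac higher at 12 of 24 (5.47%), H3K27me3 higher at 5 of 24 (17.6%) and lower at 4 of 24 (14.2%), and H3K36me3 higher at 4 of 24 (16.0%) and lower at 3 of 24 (11.4%). At a fold of 1.5, H3K4me3 was higher at 4 (9.44%), H3K4me2 higher at 6 (7.52%) and lower at 5 (58.2%), H3K4me1 lower at 1 (35.9%) and H3K36me3 higher at 6 (23.9%), and for gene bodies H3K36me3 was higher at 1 (18.8%) and lower at 1 (18.6%). At a fold of 3, H3K4me3 was lower at 0 (2.29%), H3K4me2 higher at 1 (3.04%), H3K4me1 higher at 3 (5.39%), H3K27ac higher at 4 (5.73%) and lower at 0 (18.0%), and H3K36me3 higher at 1 (3.65%). Against the 200 kb around the TSS as background, the counts above it were 11 for H3K4me2 (40.4%), 12 for H3K4me1 (29.1%) and 11 for H3K27ac (33.1%) in myotubes, and 7 in myoblasts (21.1%) and 7 in myotubes (18.9%) for H3K36me3.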
